A study of Rattus norvegicus with 6 samples.

Results

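The genes described here are the 4 Notch receptors (Notch1 to Notch4), 3 of their ligands (Jag1, Jag2 and Dll4) and 3 genes that Notch signalling is known to switch on (Hes1, Hey1 and Heyl). They were chosen by symbol: all 10 symbols were found, each on exactly 1 feature of the array, among 18166 genes measured. Expression was read on 6 Affymetrix arrays, of 1 colour each, hybridised with RNA of rat adipose-derived stem cells (ADSCs), stromal precursors that can become fat cells. All cells came from the inguinal fat of female Wistar rats aged 2 weeks. The 3 control cultures grew in α-MEM with 10% fetal bovine serum. The 3 induced cultures were kept for 7 days in α-MEM with 20% serum, 0.5 mM 3-isobutyl-1-methylxanthine (IBMX, which blocks the breakdown of cyclic AMP), 1 µM dexamethasone (a synthetic glucocorticoid) and 5 µg/ml insulin. The 2 media therefore differ in serum as well as in the inducers. No time in culture is given here for the control cultures, so it may differ as well. The labels call the arrays biological replicates but do not say whether cultures came from separate animals, so the p-values measure the spread between these cultures.

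Notch receptors sit in the cell membrane and bind ligands of the Jagged and Delta-like families on neighbouring cells. Binding lets proteases, the last of them γ-secretase, release the receptor's intracellular part. This enters the nucleus, joins the DNA-binding protein RBPJ and turns on genes such as the HES and HEY repressors. In fat precursors the pathway is known as a regulator of the choice between growth and differentiation, and Jag1 and Hes1 have both been studied in adipogenesis.

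The promoters of Hes1 and Heyl are shown because the RBPJ complex acts through such regions, and that of Jag1 because it was the member with the largest change. Sequences are from RefSeq (build GRCr8), which gave a promoter for 8 of the 10 members, and each line holds the 250 bases before the start of the gene, 5′ to 3′ on the gene's strand. Capitals mark TGGGAA, the core of the RBPJ site, searched on both strands. The Hes1 stretch lies at chr11:84213046-84213295 on the minus strand, that of Heyl at chr5:140793021-140793270 on the plus strand and that of Jag1 at chr3:144894884-144895133 on the minus strand.
Hes1: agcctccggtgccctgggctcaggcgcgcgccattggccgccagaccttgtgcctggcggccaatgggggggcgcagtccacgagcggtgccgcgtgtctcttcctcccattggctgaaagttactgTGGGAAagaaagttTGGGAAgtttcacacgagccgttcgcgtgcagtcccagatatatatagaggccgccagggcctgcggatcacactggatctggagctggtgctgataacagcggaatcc
Heyl: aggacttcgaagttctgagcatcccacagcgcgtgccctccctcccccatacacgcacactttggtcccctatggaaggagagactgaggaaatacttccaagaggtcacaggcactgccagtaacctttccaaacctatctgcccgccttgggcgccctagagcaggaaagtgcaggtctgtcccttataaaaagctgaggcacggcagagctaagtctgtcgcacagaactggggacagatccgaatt
Jag1: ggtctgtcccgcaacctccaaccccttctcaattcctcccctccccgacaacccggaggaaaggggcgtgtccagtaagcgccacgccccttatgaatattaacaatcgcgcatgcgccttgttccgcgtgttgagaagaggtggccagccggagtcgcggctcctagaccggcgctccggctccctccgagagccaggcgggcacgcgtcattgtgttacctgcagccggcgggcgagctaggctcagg
The Hes1 promoter held 2 cores in the same orientation, at bases 123 to 118 and 109 to 104 before the start, the first of them within GTGGGAA, a fuller form that contains the core. Of 33360 distinct promoter stretches of this length 22.1% held at least 1 core, 2.72% held 2 or more, and 5.27% held GTGGGAA. No core was found in the Heyl and Jag1 stretches. Of the remaining stretches, that of Notch4 held 2, and those of Notch1, Notch2, Notch3 and the 2 starts of Jag2 held 0. The box CACGCG, a sequence that HES and HEY proteins are known to bind, searched on both strands, occurred 2 times each in the Hes1, Jag1 and Notch2 stretches and 1 time each in those of Heyl and 1 start of Jag2, where 7.16% of all stretches held at least 1 match and 1.32% held 2 or more. The box CACGTG (in 5.61% of all stretches) had 0 matches in any member's stretch. These matches describe sequence only.

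Values are log2 RMA signals, and a positive difference means a higher signal in induced cells. Array medians ran from 5.64 to 5.73. The 10 measured adipocyte markers of the list used here were all higher on every induced array than on any control array, and 4 of them passed the test across all genes. Their mean signal was 6.79 to 8.27 on the control arrays and 10.49 to 11.47 on the induced arrays, control replicate 1 and induced replicate 3 being the highest of their groups. The stromal markers Thy1 (11.84 to 12.33 in control, 11.10 to 11.21 in induced cells) and Pdgfra (11.61 to 12.26 and 9.05 to 11.99) read high on the control arrays, and Pdgfra was lowest on induced replicate 3. Of the same list, Cd44 and Nt5e had control means of 9.03 and 9.86, above the median level over all genes, 6.46. Cd34, Dpp4 and Pi16, at 5.78 each, and Ly6al, at 2.83, had control means below it. The cells were measured in bulk, so fewer cells of a type and less RNA per cell cannot be told apart. In the fit across all genes 136 genes (0.749%) passed at an adjusted p under 0.05, 87 higher (0.479%) and 49 lower (0.27%). This number was 15 without control replicate 2, 20 without control replicate 3, 2 without induced replicate 1, 26 without induced replicate 2 and 557 without induced replicate 3.

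Among the Notch genes 1 of 10 passed, the ligand gene Jag1, which was higher in induced cells. Over all genes 0.479% passed in that direction. None of the 10 was lower at the threshold (0 of 10 by limma), and 4 of 10 had an unadjusted p under 0.05, against 17.6% of all genes. The members' median change was 0.04, and that of all genes was -0.01. For 4 of 10 members the 3 induced arrays did not overlap the 3 control arrays, where 25.4% of all genes did not. Of these, 3 lay above the control arrays (12% of all genes) and 1 below (13.4% of all genes).

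**Figure D1:**
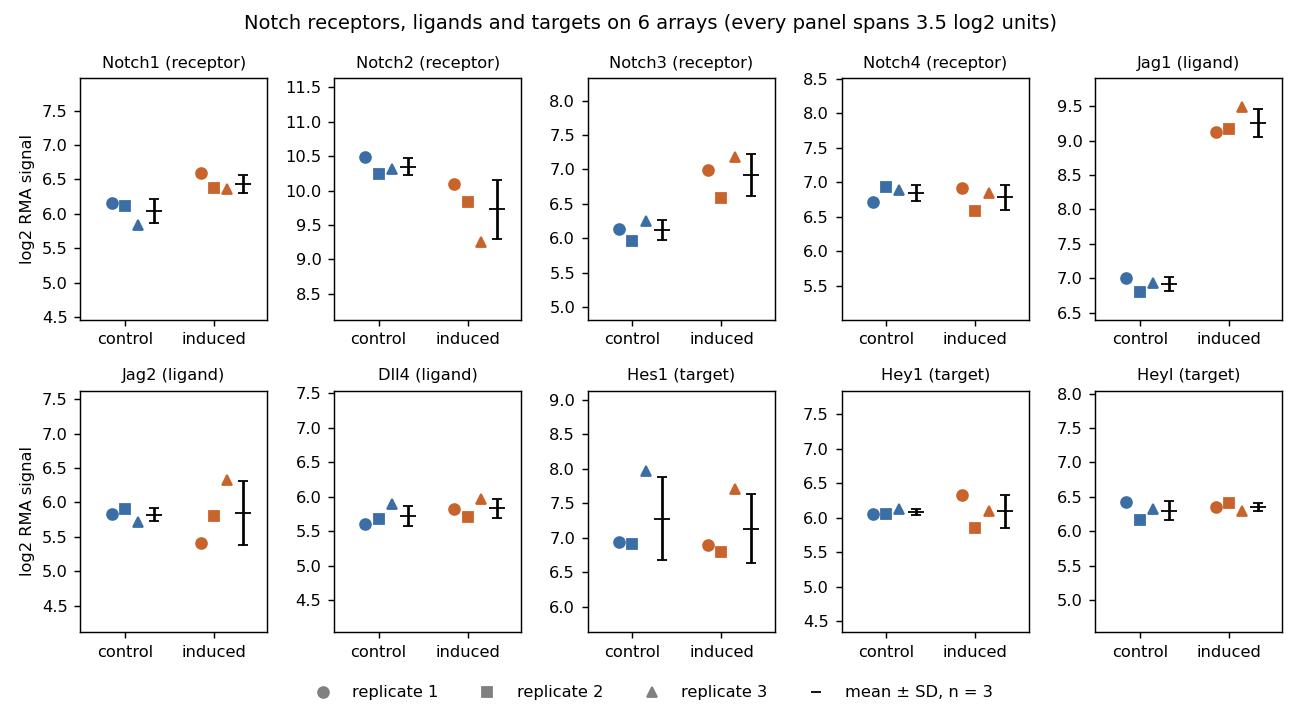
Log2 RMA signal (vertical axis) of the 10 Notch genes in control and induced cultures; each symbol is 1 array, its shape the replicate number, and the bar gives the mean ± SD of 3 arrays. The 3 induced arrays of Jag1 sit between 9.12 and 9.49, all above the control arrays at 6.81 to 7.01, while the groups overlap for Notch4, Jag2, Dll4, Hes1, Hey1 and Heyl.

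Of the receptors, Notch2 had lower and Notch1 and Notch3 higher signals on the induced arrays, but 0 of 4 receptors passed over all genes in limma, while 3 of 4 had an unadjusted p under 0.05. Notch3, a receptor best known from the muscle cells around blood vessels, read 6.14, 5.96 and 6.25 in control replicates 1 to 3, then 6.99, 6.59 and 7.18 in the induced ones. All its induced values lay above all control values. The difference was 0.80 (SE 0.18, 95% confidence interval 0.38 to 1.22), which is 1.74-fold, with a limma adjusted p of 0.102.

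Notch1, the receptor first linked to leukaemia in man, read 6.16, 6.12 and 5.84 in control and 6.59, 6.37 and 6.36 in induced cells. The groups were apart by a narrow margin, and the difference of 0.40 (SE 0.14, interval 0.08 to 0.73) had a limma adjusted p of 0.21. Notch2, a widely expressed receptor, read 10.49, 10.24 and 10.31 in control and 10.10, 9.83 and 9.26 in induced cells. Its induced values lay below all control values, with induced replicate 3 lowest. The difference was -0.62 (SE 0.22, interval -1.15 to -0.09), with a limma adjusted p of 0.232. Leaving out 1 array at a time gave differences from -0.80 to -0.38. On induced replicate 3 the mean of the 8 measured stromal precursor markers was also lowest, at 6.78, while the remaining induced arrays gave 7.32 and 7.37 and the control arrays 7.82 to 7.97. Of these markers Pdgfra had the largest drop on that array, at 9.05 against 11.99 and 11.95 on the remaining induced arrays. Cd44, Nt5e, Dpp4 and Pi16 were also lowest there among the induced arrays. Thy1, at 11.21, and Cd34, at 4.69, went the other way and were highest there. Ly6al, at 2.82, lay between the remaining induced arrays. The part of stromal precursor cells in the Notch2 values was not tested.

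Notch4, a receptor of endothelial cells, read 6.72, 6.93 and 6.89 in control and 6.91, 6.58 and 6.85 in induced cells. The groups overlapped, and the difference of -0.07 had an interval of -0.38 to 0.25. Changes were also set side by side between receptors, for the 2 that read higher on the induced arrays against the 1 that read lower, pairs chosen with those values known. The signal of Notch3 minus that of Notch2 on the same array went from -4.22 ± 0.15 without induction to -2.81 ± 0.63 with it (SD, n = 3), a shift of 1.41, and that of Notch1 minus Notch2 shifted by 1.02. Each shift had no overlap between the groups and a two-sided exact permutation p of 0.1, the smallest that 3 against 3 arrays can give, so no difference between the receptors is shown at the threshold. With the 2 ligand pairs given next, 4 such pairs were compared, and the p adjusted over them was 0.1 for each.

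Jag1 was the ligand gene that rose. Jagged 1, its product, is a membrane-bound ligand that activates Notch on adjacent cells. Its signal was 7.01, 6.81 and 6.93 in control cultures 1 to 3, then 9.12, 9.16 and 9.49 in the induced ones. The spread within each group was small beside the gap between them. From 6.92 ± 0.10 to 9.25 ± 0.20 (SD, n = 3), Jag1 rose by 2.34 (SE 0.14, interval 2.00 to 2.67), or 5.05-fold (interval 4.01 to 6.36), with a limma adjusted p of 0.00537. Its p ranked 3 among 18166 genes and its absolute change ranked 129, so 0.705% of genes had a larger one. The rise was 2.22 to 2.40 whichever array was left out. The adjusted p went to 0.051 without induced replicate 1, a fit in which 2 genes passed in all, and stayed between 0.00116 and 0.0433 without any other single array.

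Beside the rise of Jag1, control replicate 1 had the highest control mean of the adipocyte markers, at 8.27 against 6.93 and 6.79, and it also had the highest control signal of Jag1, at 7.01 against 6.81 and 6.93. Among the induced arrays replicate 3 was highest in both. The part of adipocyte content in the Jag1 values was not tested. Jag1 is known from endothelial and mural (vessel wall) cells, and markers of both were read. Of 14 measured endothelial markers 0 passed (0 at an unadjusted p under 0.05 as well), with a mean of 5.30 to 5.44 in control and 5.22 to 5.39 in induced cells. The defining endothelial gene Cdh5 read 4.47 to 4.68 in control and 4.54 to 4.68 in induced cells. Tek, with the lowest estimate of the list (-0.74), read 5.17, 5.28 and 6.51 in control and 4.83, 4.84 and 5.07 in induced cells. Its groups were apart, and Egfl7 had the highest estimate, 0.61. These list means lay below 6.46, the median level over all genes, so small differences say less. Of 10 measured mural markers 0 passed in limma and 2 had an unadjusted p under 0.05, with a mean of 7.01 to 7.27 in control and 7.07 to 7.23 in induced cells. The median change of the list was -0.49, with 6 of 10 members at negative estimates, among them Tagln at -0.72, Myh11 at -0.62 and Des at -0.58. The pericyte gene Rgs5 read 5.68 to 5.75 and 5.63 to 5.88. Mcam had the largest positive estimate of the mural list, 2.42, reading 6.42, 5.74 and 6.29 in control and 7.66, 7.56 and 10.51 in induced cells. The part of endothelial and mural cells in the Jag1 values was not tested.

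The other ligand genes gave no such difference. Jag2, the second Jagged ligand, read 5.84, 5.91 and 5.72 in control and 5.41, 5.80 and 6.33 in induced cells, so that its induced arrays lay on both sides of the control arrays. The difference was 0.03 (interval -0.52 to 0.58). Dll4, a Delta-like ligand of the endothelium, read 5.60, 5.67 and 5.89 in control and 5.82, 5.70 and 5.97 in induced cells, with a difference of 0.11 (interval -0.20 to 0.43). Set against these on the same array, Jag1 minus Jag2 went from 1.10 ± 0.17 to 3.41 ± 0.28 and Jag1 minus Dll4 from 1.20 ± 0.20 to 3.43 ± 0.11 (SD, n = 3). The change of Jag1 was larger by 2.31 than that of Jag2 and by 2.23 than that of Dll4, each with an exact permutation p of 0.1. That is the smallest possible and above the threshold, so this test could not pass. These pairs too were chosen with the values known. The arrays give no detection call, and Jag2, Dll4, Notch1, Hey1 and Heyl had means below 6.46, the median level over all genes. RMA compresses differences of dim genes, so for these 5 a small estimate says less than for the other 5. Among the other 5, Notch3 had a control mean of 6.12, below that level, and an induced mean of 6.92. Its difference may therefore be compressed as well. Notch4 lay little above that level, with means of 6.85 in control and 6.78 in induced cells, and the same applies to it.

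The target genes did not pass the test in either direction (0 of 3 by limma, and 0 of 3 at an unadjusted p under 0.05). Hes1 encodes a basic helix-loop-helix repressor that acts below Notch in many tissues. The control arrays read 6.94, 6.91 and 7.97 and the induced arrays 6.90, 6.79 and 7.70, in the order of their numbers. The array numbered 3 was the high one in both groups, and the groups overlapped. The difference was -0.14 (SE 0.36, interval -1.01 to 0.72), reaching from a 2-fold fall to a smaller rise, and leaving out control replicate 3 gave 0.20. The residual SD of Hes1 was 0.55, against a median of 0.19 over all genes. On these same 2 arrays the mean of the 10 macrophage and leukocyte markers was the lowest of each group, at 5.52 against 6.49 and 6.83 in control and 5.96 against 7.47 and 7.05 in induced cells, with 0 of 10 passing in limma and 1 at an unadjusted p under 0.05. Ptprc, the pan-leukocyte marker, read 4.04 and 4.26 on them and 4.63 to 5.64 on the other arrays. Its group means, 5.01 in control and 4.67 in induced cells, lay below 6.46, the median level over all genes. Cd68 of the same list was lowest on control replicate 3, at 5.96, but on induced replicate 3 it read 9.45, its highest value on any array. C1qa read 6.32 on control replicate 3, against 6.43 and 6.21 on the other control arrays. The part of macrophages and leukocytes in the Hes1 values was not tested.

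Hey1, a related repressor known from blood vessel development, read 6.06, 6.05 and 6.13 in control and 6.33, 5.85 and 6.09 in induced cells. Its difference was 0.01 (interval -0.33 to 0.35), and its sign depended on which array was left out. Heyl, the third HEY family gene, read 6.42, 6.16 and 6.33 in control and 6.35, 6.41 and 6.30 in induced cells, a difference of 0.05 (interval -0.22 to 0.32) whose sign turned without control replicate 2. Of the 9 members that did not pass, 6 had an interval that held no 2-fold change in either direction. All of these 6 except Notch4 had means below the median level over all genes, 6.46. Notch4 lay little above that level, with means of 6.85 in control and 6.78 in induced cells. RMA compresses differences of dim genes, so the narrow intervals of these 6 say less about a 2-fold change in RNA. The intervals of Notch2, Notch3 and Hes1 reached past 2-fold. These intervals are for single genes and are not adjusted for their number.

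**Figure D2:**
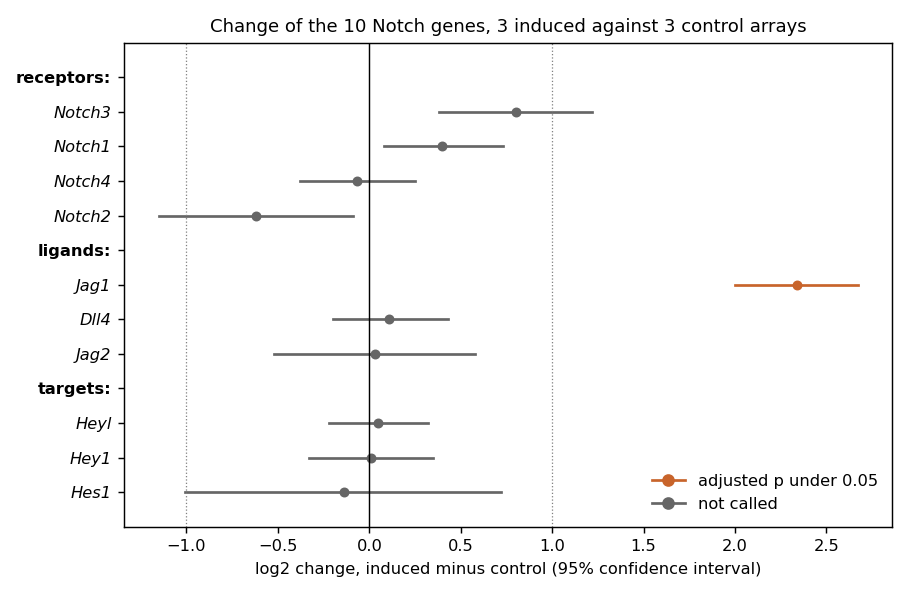
Log2 change, induced minus control (horizontal axis), of each Notch gene with its 95% confidence interval from limma, grouped by role; dotted lines mark a 2-fold change. Jag1 alone passed at an adjusted p under 0.05, with an interval of 2.00 to 2.67, while the intervals of the 3 target genes all include 0.

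The wider pathway was read from a list of 68 further genes, of which 58 were measured. Of these 2 rose and 0 fell (0.479% of all genes rose and 0.27% fell), 10 had an unadjusted p under 0.05 (17.6% of all genes did), and the median change was -0.04. The rising genes were Dlk1 and Dtx4. Dlk1, a ligand-like membrane protein that lacks the domain by which Jagged and Delta bind Notch, read 6.52, 6.52 and 6.53 in control and 7.77, 7.51 and 7.36 in induced cells (limma adjusted p = 0.033). Dtx4, a ubiquitin ligase of the Deltex family that acts on Notch receptors, read 7.66, 7.10 and 7.12 in control and 8.56, 8.61 and 8.35 in induced cells. It rose by 1.21 (SE 0.18, interval 0.78 to 1.65; limma adjusted p = 0.0478). Both calls were lost without control replicate 2 or 3 or induced replicate 1 or 2, where 0 of 58 genes passed, with adjusted p from 0.111 to 0.13 for Dlk1 and 0.139 to 0.19 for Dtx4. Without control replicate 1 the Dlk1 call was also lost (adjusted p = 0.0803). Of 6 other ligand genes 1 passed, with 2 at an unadjusted p under 0.05. The second was Dner, at -1.02, the lowest estimate of the wider list. Of 12 ubiquitin ligases and endocytic regulators 1 passed, with 3 at an unadjusted p under 0.05. Besides Dtx4 these were Dtx3, at -0.76, and Neurl1b, at -0.32. Dner, Dtx3 and Neurl1b each had all induced values below all control values.

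By role, receptor processing had 0 of 6 genes passing in limma and 1 at an unadjusted p under 0.05. The γ-secretase genes Psen2, which encodes a catalytic subunit, and Psenen, which encodes its activator, had differences of 0.76 (interval -0.08 to 1.59) and 0.46 (interval 0.03 to 0.90). Psen2 was at 7.96 on control replicate 1 and at 6.72 and 6.66 on the other control arrays, against 7.74 to 8.04 in induced cells. Without control replicate 1 it passed (1.18, limma adjusted p = 0.0459). Leaving out any other single array gave Psen2 a limma adjusted p from 0.367 to 0.622, and it passed in no other setting.

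Of the genes whose products place sugars on Notch 0 of 4 passed, with 1 at an unadjusted p under 0.05. Lfng, which encodes the Fringe enzyme that alters which ligands a receptor answers to, had the largest positive estimate of the wider list. It read 7.67, 7.59 and 6.98 in control and 8.43, 8.37 and 9.30 in induced cells. The groups were apart, and the difference was 1.29 (SE 0.30, interval 0.56 to 2.01; limma adjusted p = 0.114). Its relative Mfng stood at 0.47 (interval -0.05 to 0.98).

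Of 6 genes of the nuclear complex and its coactivators 0 passed, with 1 at an unadjusted p under 0.05. That gene was Maml1, at -0.33, with all induced values below all control values. The coactivators Maml2 and Crebbp stood at -0.72 (interval -1.58 to 0.13) and -0.38, and Maml2 was lowest on induced replicate 3, at 7.60. No value is given for Rbpj, since its feature carried 2 symbols. Of 9 corepressors 0 passed, with 0 at an unadjusted p under 0.05, and the largest estimates were those of Hdac1 at -0.36 and Ncor1 at 0.30. Of 15 other targets and feedback genes 0 passed, with 2 at an unadjusted p under 0.05. These 2 were Id1, higher in induced cells (0.77), and Nfkb2, lower (-0.36), each with its groups apart. The largest absolute estimates were those of 2 further genes. The repressor gene Bhlhe40 stood at -0.96 (interval -1.97 to 0.06), reading 10.18, 10.30 and 11.43 in control and 9.45, 9.21 and 10.38 in induced cells, so that the array numbered 3 was the highest of each group, as for Hes1. The cyclin gene Ccnd1 stood at -0.81 (limma adjusted p = 0.285).

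**Figure D3:**
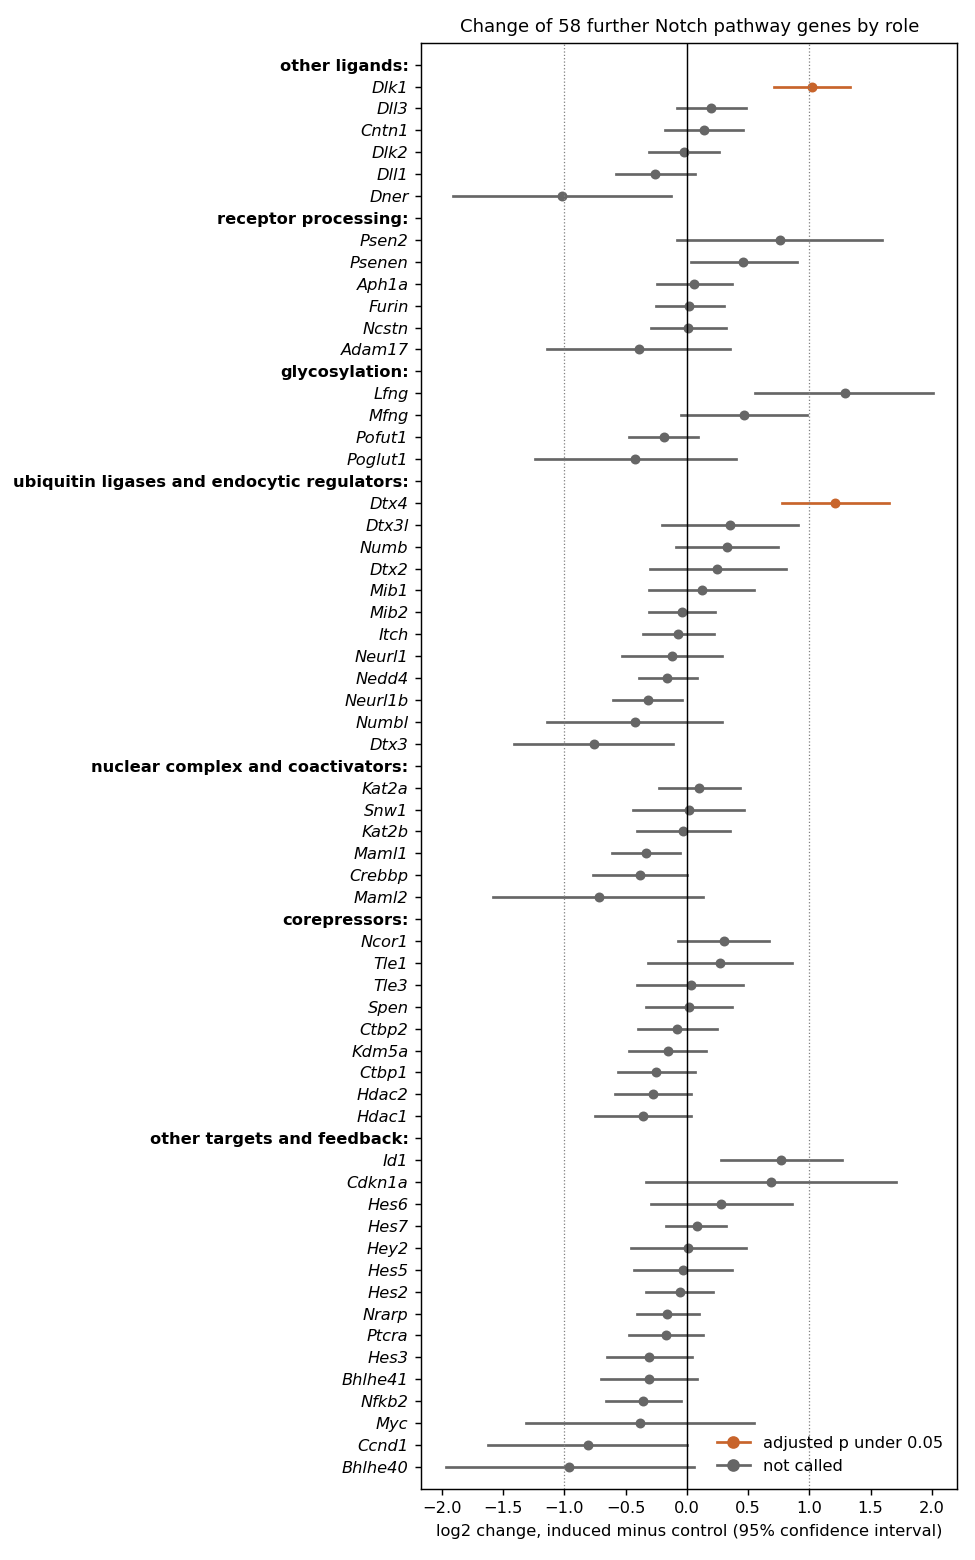
Log2 change, induced minus control (horizontal axis), of 58 further Notch pathway genes by role, with 95% confidence intervals from limma; orange marks an adjusted p under 0.05. Dlk1 and Dtx4 are marked, and Lfng has the largest positive estimate, at 1.29, with an adjusted p of 0.114.

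The genes whose profile was nearest to a member over the 6 arrays were found for the 4 members with the widest range. The measure was the root mean square distance between log2 values after each gene was centred on its own mean, so a small distance means like rises and falls on the same arrays. Nearest to Jag1 were Cyria, a regulator of Rac1, at 0.15, Acer2, a ceramidase, at 0.21 and Tst, a mitochondrial sulfur transferase, at 0.24. Cyria read 6.81, 6.64 and 6.43 in control and 9.02, 9.08 and 9.41 in induced cells. All 3 thus share with Jag1 a gap between the groups.

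Nearest to Notch2 were the growth factor receptor gene Fgfr1, Tcp11l1 and the hedgehog signal transducer gene Smo, each at 0.07. Fgfr1 read 10.48, 10.32 and 10.36 in control and 10.02, 9.96 and 9.28 in induced cells, again with induced replicate 3 lowest. Nearest to Notch3 were the homeobox gene Hoxb6 at 0.06, and the microRNA gene Mir29b2 and Nudt8 at 0.08 each. Nearest to Hes1 were Dysf, a membrane repair gene, at 0.15, Gng11, a G protein subunit gene, at 0.16 and Mfap3l at 0.19. These 3 were highest on the array numbered 3 of both groups, as Hes1 was. With 6 arrays and 18166 genes some near profiles are always found, and the distances describe these arrays only.

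**Figure D4:**
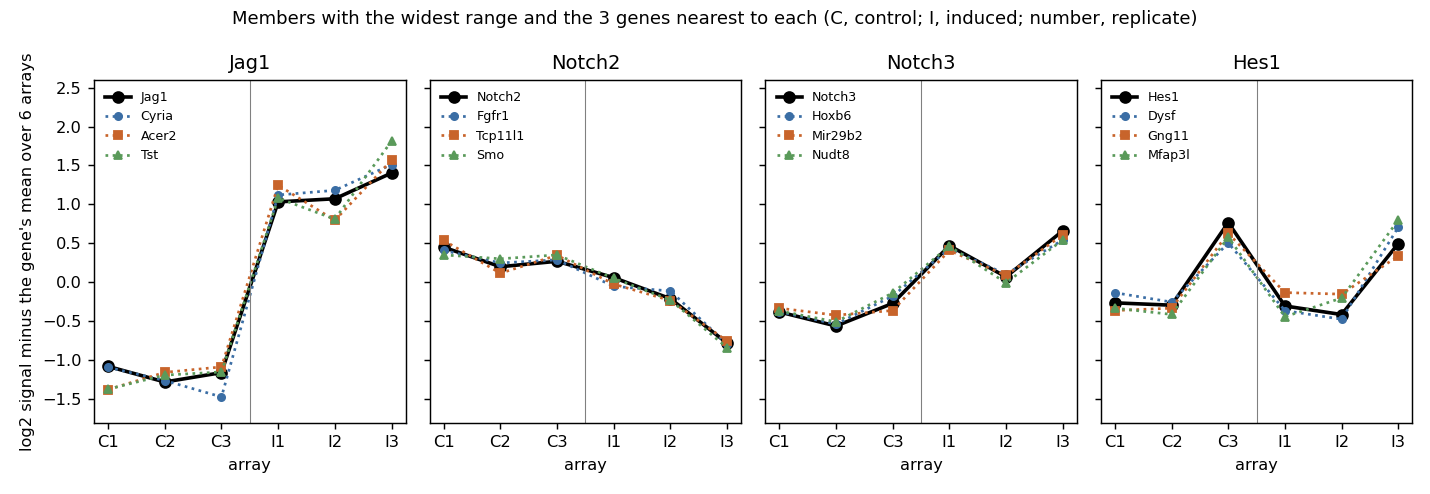
Log2 signal minus each gene's mean over the 6 arrays (vertical axis) for Jag1, Notch2, Notch3 and Hes1 (black) and the 3 genes nearest to each (colours), by array (C, control; I, induced; the number is the replicate). Jag1 and its neighbours step up between the groups, and Hes1 and its neighbours are high on C3 and I3.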

How the data were processed

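The deposited table holds log2 values that the authors made with RMA, per the submitters' processing notes. Its version was not given in the sources used here. RMA subtracts background, makes the arrays' distributions alike and summarises probes, so a change in total RNA cannot be seen. The range of the values showed the scale to be log2. Of 36685 features the platform annotation gave 18511 exactly 1 symbol, 575 several and 17599 none. Genes were named from the first kind only, with the feature of highest mean kept per symbol (18166 genes). All 10 members matched the GRCr8 table by gene number.

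The test was two-sided, by lmFit and eBayes of limma 3.58.1 under R 4.3.3, with no block and 4 residual degrees of freedom, and p-values were adjusted over all genes by the Benjamini-Hochberg method. A gene rose or fell at an adjusted p under 0.05. The fit was tested on simulated data. Leaving out each array, a replicate block, array weights and 6 other settings were tried. The members, the wider list and the markers were chosen with earlier results of these data known. From the wider list, passing genes are named for each role, or otherwise the 2 with the largest absolute change. Id1, Thy1, Pdgfra, Cdh5, Rgs5, Mcam, Ptprc, Tagln, Myh11 and Des were named after their values were seen. So were Cd44, Nt5e, Cd34, Dpp4, Pi16, Ly6al, Cd68, C1qa, Tek, Egfl7, Nfkb2, Maml1, Dner, Dtx3 and Neurl1b. The number of arrays limits the precision.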

Additional observations from a re-analysis of the deposited data

How the results depend on the processing

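Jag1 kept its rise in all 14 alternatives and its call in 12, the exceptions being the fit without induced replicate 1 and the one without moderation of the spread (2.34, adjusted p = 0.18). Over all genes 69 features passed when all features were fitted together, 929 genes with array weights, 0 without moderation (2422 at an unadjusted p under 0.05) and 12 with the replicate block, and 2 to 557 with 1 array left out. In the wider list 0 genes passed with all features (10 at an unadjusted p under 0.05), 1 with a trend in the prior, 4 with array weights (Dlk1, Dtx4, Id1 and Lfng), 0 without moderation (8 unadjusted) and 0 with the replicate block (13 unadjusted), and 0 to 3 with 1 array left out. Of the members 2 passed with array weights (Jag1 and Notch3, the latter at 0.75, adjusted p = 0.0412), 0 without moderation (3 unadjusted), 1 with the replicate block and 0 to 1 with 1 array left out. The array weights were 0.273 for induced replicate 3 and 0.771 to 1.9 for the others. The sign of Jag2 turned with array weights (-0.19). With 1 array left out, Jag2 ran from -0.21 to 0.24, Hey1 from -0.11 to 0.13, Heyl from -0.02 to 0.11, Hes1 from -0.43 to 0.20 and Notch4 from -0.13 to 0.03, and none of these passed. The causes were not tested.

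Arrays with the same replicate number are not said to share a source. Their deviations from the group means correlated at 0.0227, 0.12 and 0.154 across genes for numbers 1, 2 and 3. The value for number 3 was the highest of all pairings. Control replicate 1 correlated slightly better with induced replicate 2 (0.0426), and control replicate 2 with induced replicate 1 (0.123). These correlations do not settle whether the numbers mark pairs. The labels name no pairs, so the main fit took none. With the replicate block Jag1 had an adjusted p of 0.0361.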
